A study of Homo sapiens with 6 samples.

Results

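The 78 genes described here are the protein-coding genes whose symbol starts with MRPL or MRPS, the names given to proteins of the mitochondrial ribosome. They are found by symbol in a table of 60664 genes, and that rule uses no measured value. mRNA was sequenced from cells labelled HCT8, the name of a human colorectal cancer line, and labelled WT in all 6 samples. 3 libraries came from cells that had received a control plasmid and 3 from cells that had received a plasmid for overexpression of GPT1, the cytosolic alanine aminotransferase (symbol GPT). Below these are called the control and the GPT1 libraries, by their labelled replicate numbers. The series was made to look for pathways that GPT1 regulates. The time after transfection and whether the libraries came from separate cultures are not stated in the labels, so the p-values below measure the spread between these libraries, which may be technical.

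Libraries held 21255655 to 32487217 counts. Levels are given as CPM, counts per 1000000 counts of a library, with library sizes scaled by edgeR's TMM factors. The transfected gene matched the labels: GPT had 9, 14 and 3 counts in the control libraries, against 105529, 96886 and 106063 counts in the GPT1 libraries (exact two-sided permutation test of CPM, p = 0.1, the smallest that 3 against 3 allows). Epithelial markers were present apart from KRT20, and 6 of the 7 tested were lower in the GPT1 libraries. The exception was CDX2, at 41.7 CPM in the control and 45.3 CPM in the GPT1 libraries, with no call. The epithelial markers summed to 970.0 ± 81.0 CPM in the control and 605 ± 38.6 in the GPT1 libraries (SD, n = 3 each), with KRT20 at or near 0 in all. That sum was mostly KRT8 and KRT18 (log2 fold changes -0.59 and -0.61), and KRT19, CDH1, VIL1 and EPCAM fell further (-2.17, -2.01, -1.96 and -1.42). A list of 6 neural and renal markers summed to 1269 ± 118 and 599 ± 35.5, and 4 of the 6 were called lower. The sum was mostly NEFM, NEFL and IRS4, while MAP2, PAX2 and PAX8 had group means of at most 5.65 CPM. In the control libraries IRS4, NEFM and NEFL stood at 813, 292.5 and 152 CPM, and KRT8 and KRT18 at 529 and 261 CPM. KRT19, CDH1, EPCAM and VIL1 were lower than all of these there, at 51.2, 50.1, 24.9 and 12.3 CPM. Whether the cells match their label was not tested. Of 7 mesenchymal markers VIM stood at 1023 and 1040 CPM, COL1A1 at 18.6 and 15.5, and the others at no more than 3.7. Among the 5 of these that were tested only LUM was called, higher, at 1.39 and 2.35 CPM. Leukocyte and endothelial markers summed to at most 2.52 and 0.951 in any library. These marker shifts moved with the treatment, and their part in the results below was not tested.

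Mitochondrial ribosomes translate the proteins that the mitochondrial genome encodes, which are core subunits of the respiratory chain and of ATP synthase. All their proteins are encoded in the nucleus, made in the cytosol and imported, and they join ribosomal RNA that is made inside the organelle. The large subunit (MRPL names) forms peptide bonds, and the small subunit (MRPS names) binds and decodes the mRNA. Some of the proteins descend from bacterial ribosomal proteins and others are found only in mitochondria. Promoters of nuclear genes for mitochondrial proteins are known for sites of NRF1, of ETS factors such as GABP, and of YY1.

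RefSeq promoter windows, from 250 bases before to 50 bases after the annotated start (GRCh38.p14), were matched for 69 of the 78 members. In these windows 7 motifs were searched for on both strands. The core letters of a YY1 site, AAGATGGC, stood in 21 member windows (30.4%), against 3.52% of the windows of 27305 genes and 4.66% of those of 15843 protein-coding genes. An ETS core, CCGGAAGT, stood in 12 member windows (17.4%, against 4.95% and 6.97%), and an NRF1 core, GCGCATGC, in 6 (8.7%, against 3.68% and 4.89%). The GC box GGGCGG was found in 60.9% of member windows (48.3% of all and 64.3% of coding), CCAAT in 33.3% (39.7% and 42.1%) and the E-box CACGTG in 13% (8.77% and 10.9%). The TATA box TATAAA was found in 4.35% of member windows, against 14% of all and 12.4% of coding windows. Member promoters thus held the YY1 and ETS letters more often than promoters at large, as a description of sequence that used no expression value. No motif searched is contained in another.

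Of the 7 motifs, the YY1 letters differed most in share between member promoters and all promoters. They are therefore shown, in capitals, for 5 of the 7 members called higher in the GPT1 libraries that held them. MRPL22, whose letters begin too near the end of its window, is not shown. Nor is MRPS12, which has them on the other strand at positions -222 and -212 from the annotated start.
MRPL51: gggtaaggcccAAGATGGCtgtcttcgcct
MRPL45: tttgcgggaacAAGATGGCagcccccatac
MRPS7: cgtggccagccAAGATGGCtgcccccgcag
MRPL20: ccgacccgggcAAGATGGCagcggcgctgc
MRPL52: aacccagattcAAGATGGCgacttcctgct
Each is written along its gene's strand. The sites lie at chr12:6493223-6493252 (MRPL51, minus strand), chr17:38297170-38297199 (MRPL45, plus), chr17:75261887-75261916 (MRPS7, plus), chr1:1407260-1407289 (MRPL20, minus) and chr14:22829812-22829841 (MRPL52, plus). In MRPL51, MRPL45, MRPS7 and MRPL20 the letters begin at positions 22, 14, 20 and 16, counted from the annotated start. In MRPL52 the copy shown begins 64 bases before it. Of the 21 members with the YY1 letters, 16 had them on the gene's own strand after the start, with the first base at position 7 to 36. The letters hold an ATG, and whether that ATG is the start codon of each gene was not tested.

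ETS letters stood in the windows of 3 of the 4 members with the lowest adjusted p values in the comparison, and are shown for that reason.
MRPL51: ggcgctccaaaACTTCCGGcaggcggaccg
MRPL52: aggccacgcctACTTCCGGctaccccggct
MRPL27: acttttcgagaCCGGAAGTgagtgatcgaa
The capitals mark CCGGAAGT or its reverse complement. These lie at chr12:6493364-6493393 (MRPL51, minus strand), chr14:22829870-22829899 (MRPL52, plus) and chr17:50373174-50373203 (MRPL27, minus). Expression calls were spread over members with and without these letters. The YY1 letters stood in 7 of the 18 matched members that were called higher and in 13 of the 49 that were tested and not called. For the ETS letters these were 5 of 18 and 6 of 49, and for the NRF1 letters 2 of 18 and 4 of 49. No test was made of these shares.

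Members differed widely in level. The mean over the 6 libraries ran from 0 to 459 CPM, with a median of 63.0. Per length (RPKM, CPM per kilobase of the gene's longest transcript), the highest were MRPL37 at 290.1, MRPS34 at 181, MRPL24 at 169, MRPS26 at 146 and MRPL15 at 106, against a median of 33.1 for tested members. MRPL37 and MRPS34 are proteins found only in mitochondrial ribosomes, while MRPL24 and MRPL15 have bacterial homologues.

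MRPL37 had the highest CPM of the members in every library, at 444, 486 and 385 CPM in the control and 510.0, 440.2 and 489 CPM in the GPT1 libraries. The groups overlapped (log2 fold change 0.13 ± 0.10 (SE), edgeR adjusted p = 0.351). MRPS34 had 184, 219 and 167 CPM in the control and 203, 174 and 183 CPM in the GPT1 libraries, also with overlapping groups (-0.03 ± 0.11 (SE), edgeR adjusted p = 0.872). For MRPL24, a protein at the exit of the peptide tunnel, the values were 169, 183 and 157 CPM in the control and 175, 152 and 168 CPM in the GPT1 libraries (-0.04 ± 0.09 (SE), edgeR adjusted p = 0.753). MRPS26 stood at 158, 168 and 139 CPM in the control and 191, 162 and 172 CPM in the GPT1 libraries (0.18 ± 0.10 (SE), edgeR adjusted p = 0.187). Of the 5 members highest per length (RPKM), MRPL15 alone passed the test.

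The lowest levels were found among members whose exons lie under those of another gene on the same strand. In the GENCODE 29 annotation 41 members share exon bases with another gene, 16 of them with one on the same strand, and in 12 the share is at least 20%. The 7 with such a share on the same strand (MRPL12, MRPL33, MRPL38, MRPL53, MRPS17, MRPS24 and MRPS28) had 0 to 38.0 CPM, with a median of 3.30. The 5 with such a share only on the opposite strand (MRPL43, MRPL51, MRPS18A, MRPS18C and MRPS25) had 35.6 to 113 CPM, with a median of 80.3. The other 66 members had 3.12 to 459 CPM, with a median of 64.5. The sources used here do not say how the authors' counting treated shared bases, so the levels of the 12 are uncertain, and the part of the overlap in them was not tested. MRPL53 had 0 counts in all 6 libraries, which allows up to 3 counts, or 0.0923 to 0.141 CPM, per library from counting error. MRPL53 shares 45.2% of its exon bases with CCDC142. MRPL12 shares 68.2% with AC139530.2, a gene listed at 0 counts in every library. Pseudogenes took little: 17 of 75 named after members had any count, and together they held 1418 counts, or 0.133% of the members' own. The exception was MRPL45P2, whose counts came to 11.3% of those of MRPL45, so that MRPL45 is uncertain to that extent.

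**Figure D1:**
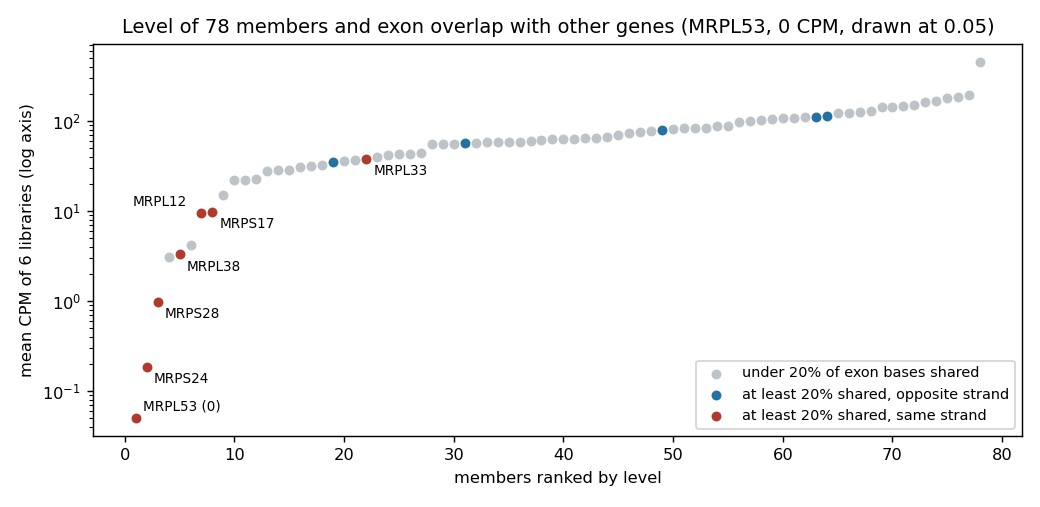
Mean CPM of the 6 libraries on a log axis for the 78 members, ranked by level. Colours mark members that share at least 20% of their exon bases with another gene on the same strand (red) or only on the opposite strand (blue), and the red points lie between 0 and 38.0 CPM.

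The main comparison asked which members differed between the GPT1 and the control libraries. 76 members passed the filter on low counts and were tested among 17638 genes, and MRPS24 and MRPL53 were not tested. 20 members (26.3% of those tested) were called higher with GPT1, that is, past an adjusted p of 0.05 in edgeR's quasi-likelihood test, where 10.5% of all tested genes were called higher. 0 members were called lower, where 14.6% of all tested genes were. At an unadjusted p under 0.05 edgeR had 34 members higher and 2 lower. These unadjusted counts were not made over all tested genes, so they have no background to be set against. At the adjusted threshold DESeq2 had 23 members higher and 1 lower, and limma voom 21 higher and 0 lower. Of all tested genes DESeq2 called 10.3% and limma voom 10.7% higher. The changes were small, 1.23-fold to 1.56-fold over the 20, with a median of 1.29-fold, and 2 of them reached 1.5-fold. The median log2 fold change was 0.24 over the 76 members and -0.02 over all tested genes. In bulk RNA fewer cells of a type and less RNA per cell cannot be told apart.

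Most members without a call pointed the same way. Of these 56, 43 had a positive and 13 a negative log2 fold change, from -0.43 to 0.58. Over all 76 tested members 63 were positive and 13 negative, and over all tested genes 8438 and 9200. All 3 GPT1 libraries lay above all 3 control libraries in 34 members (44.7%), against 21.2% of all tested genes. They lay below in 1 member (MRPS9), against 22.2% of all tested genes, and in 41 members the groups overlapped. The number of calls moved with the libraries used, over all genes as well as over the members. Without GPT1 replicate 1, or without GPT1 replicate 3, 5 members were called higher, where 3.58% and 3.39% of all tested genes were. Without control replicate 1 it was 9 members (5.48% of all tested genes), and without control replicate 2 it was 32 (10.9%). The 5 members MRPL51, MRPL52, MRPL33, MRPL27 and MRPS36 were called whichever of the 6 libraries was left out.

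**Figure D2:**
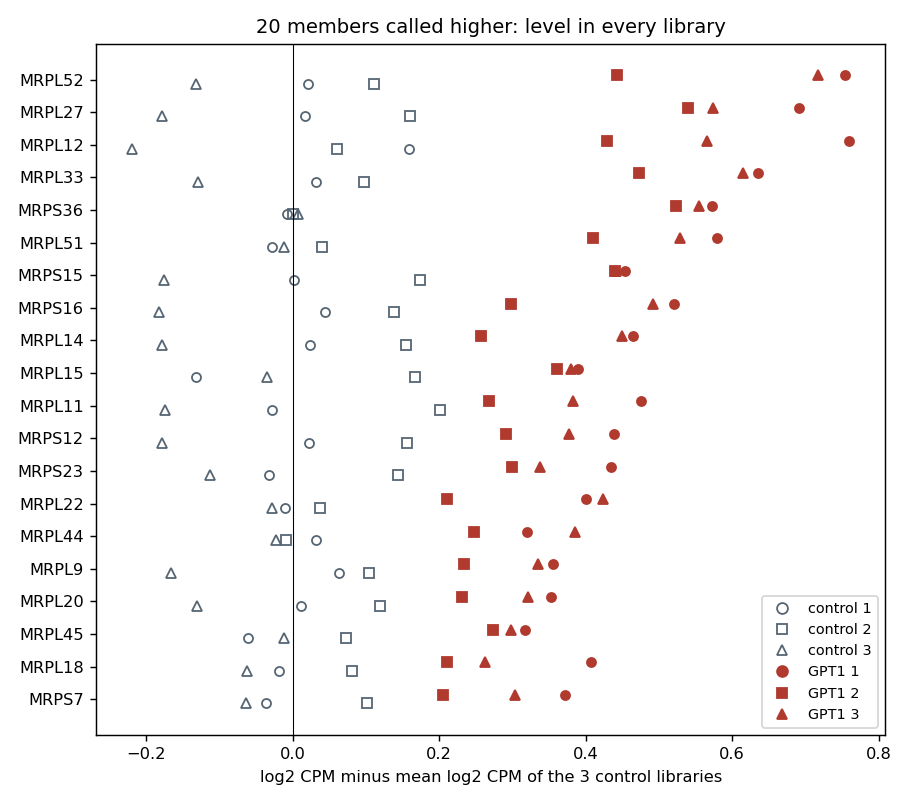
Level of each of the 20 members called higher in every library, as log2 CPM minus the mean log2 CPM of the 3 control libraries. Open grey marks are control and filled red marks GPT1 libraries, with shapes for replicate numbers, and in every row the 3 red marks lie to the right of the 3 grey ones.

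Large subunit members found only in mitochondria held the 2 lowest adjusted p values. MRPL51 (ENSG00000111639, chr12:6491886-6493841) encodes a protein with no bacterial counterpart. Its values were 91.7, 96.1 and 92.7 CPM in the control and 139.6, 124 and 135 CPM in the GPT1 libraries. No GPT1 library was as low as any control library (log2 fold change 0.51 ± 0.08 (SE), edgeR adjusted p = 0.00275). MRPL51 shares 31.3% of its exon bases with NCAPD2 on the opposite strand, which stood at 224 CPM in the control and 221 CPM in the GPT1 libraries. MRPL52 (ENSG00000172590, chr14:22829879-22835037) showed the largest fold among the called members. It had 67.4, 71.7 and 60.6 CPM in the control and 112, 90.2 and 109 CPM in the GPT1 libraries, with GPT1 replicate 2 the lowest of its group and still above every control library. The log2 fold change was 0.64 ± 0.11 (SE), or 1.56-fold (edgeR adjusted p = 0.00319).

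Among large subunit members with bacterial homologues, MRPL27 and MRPL33 rose most, together with MRPL12. MRPL27 (ENSG00000108826, chr17:50367857-50373214) belongs to a family that in bacteria reaches toward the peptidyl transferase centre. It was counted at 36.0, 39.8 and 31.4 CPM in the control and 57.5, 51.7 and 52.9 CPM in the GPT1 libraries. The groups were clear of each other by more than their own spread (log2 fold change 0.59 ± 0.11 (SE), edgeR adjusted p = 0.00526). MRPL33 (ENSG00000243147, chr2:27771717-27988087) had 31.2, 32.6 and 27.9 CPM in the control and 47.4, 42.3 and 46.7 CPM in the GPT1 libraries. Its GPT1 values also all lay above the control values (0.57 ± 0.10 (SE), edgeR adjusted p = 0.00512), with BABAM2, which overlaps 21.1% of its exon bases on the same strand, at 44.1 and 44.2 CPM.

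The stalk recruits translation factors to the large subunit, and 2 of its 4 tested members rose (MRPL11 and MRPL12). That is 50%, against 26.3% of all tested members and 10.5% of all tested genes, and the list median was 0.34. MRPL12 (ENSG00000262814, chr17:81703357-81707526) is the stalk protein itself. It had 8.53, 7.97 and 6.57 CPM in the control and 12.9, 10.3 and 11.3 CPM in the GPT1 libraries, so control replicate 3 was the lowest library and the groups did not overlap (0.58 ± 0.15 (SE), edgeR adjusted p = 0.0188). Without GPT1 replicate 1 or GPT1 replicate 3 the call of MRPL12 was lost (adjusted p up to 0.0798 in edgeR). MRPL11, at the stalk base, rose with a log2 fold change of 0.37 ± 0.11 (SE) (edgeR adjusted p = 0.0287; up to 0.117 after leaving out GPT1 replicate 1, GPT1 replicate 3 or control replicate 1, each of which ended the call). MRPL10, which anchors MRPL12, and MRPL54 did not pass (0.14 ± 0.09 (SE) and 0.32 ± 0.15 (SE)).

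MRPL15 and MRPL14 were the other large subunit members among the 10 largest called changes. MRPL15 was abundant, at 96.8, 119 and 103 CPM in the control and 139, 136 and 138 CPM in the GPT1 libraries, and all GPT1 libraries were above all control libraries (0.37 ± 0.09 (SE), edgeR adjusted p = 0.0176). MRPL14, a protein at the face toward the small subunit, had 51.2, 56.0 and 44.5 CPM in the control and 69.4, 60.2 and 68.8 CPM in the GPT1 libraries (0.39 ± 0.11 (SE), edgeR adjusted p = 0.0273). Control replicate 2 was the highest control library in both. The calls of MRPL15 and MRPL14 ended if GPT1 replicate 1, GPT1 replicate 3 or control replicate 1 was absent (edgeR adjusted p up to 0.0748 and 0.116).

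Around the exit of the peptide tunnel, where new chains leave toward the inner membrane, 2 of 6 tested members rose. This share of 33.3% stood against 26.3% of all tested members and 10.5% of all tested genes, and the list median was 0.12. MRPL22, which lines the tunnel, had 35.2, 36.4 and 34.8 CPM in the control and 46.8, 41.01 and 47.6 CPM in the GPT1 libraries (0.35 ± 0.10 (SE), edgeR adjusted p = 0.0288). MRPL45, which faces the inner membrane, had a smaller change (0.30 ± 0.09 (SE), edgeR adjusted p = 0.0322). Both calls ended when any of 3 libraries was left out, namely GPT1 replicate 1, GPT1 replicate 3 and control replicate 1 (adjusted p up to 0.138 and 0.126 in edgeR). The tunnel proteins MRPL23, MRPL24, MRPL17 and MRPL47 had log2 fold changes of 0.29, -0.04, -0.08 and -0.11, and all 4 had overlapping groups.

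In the central protuberance, the ridge of the large subunit that contacts the small subunit and the transfer RNAs, 2 of 9 tested members rose (MRPL27 and MRPL18). The list median was 0.23, and the share was 22.2%, against 26.3% of all tested members and 10.5% of all tested genes. MRPL18 had a log2 fold change of 0.29 ± 0.09 (SE) (edgeR adjusted p = 0.0348). The remaining large subunit members called higher were MRPL44 (0.32 ± 0.09 (SE), edgeR adjusted p = 0.0305), which has a ribonuclease III fold, MRPL20 (0.30 ± 0.09 (SE), 0.0364) and MRPL9 (0.30 ± 0.09 (SE), 0.0368). These 4 calls were among the least firm. Each ended if GPT1 replicate 1, GPT1 replicate 3 or control replicate 1 was absent, and that of MRPL44 also ended without control replicate 2 and those of MRPL20 and MRPL9 without control replicate 3 (edgeR adjusted p up to 0.154 for MRPL18, 0.148 for MRPL44, 0.135 for MRPL20 and 0.136 for MRPL9).

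Over the large subunit as a whole 14 of 50 tested members rose (28%, against 10.5% of all tested genes) and 0 fell (14.6%), with a median log2 fold change of 0.24. Over the small subunit 5 of 25 rose (20%) and 0 fell, with a median of 0.20. By descent, 10 of 30 large subunit members with bacterial homologues rose (median 0.24), as did 4 of 20 listed as mitochondrial (median 0.23). In the small subunit these were 4 of 15 (median 0.27) and 1 of 10 (median 0.10), and the last of these shares is close to that of all tested genes. The members listed as mitochondrial include MRPS18A (large subunit) and MRPS18B (small subunit), homologues of the bacterial protein S18, neither of which was called. No difference between these groups was tested.

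**Figure D3:**
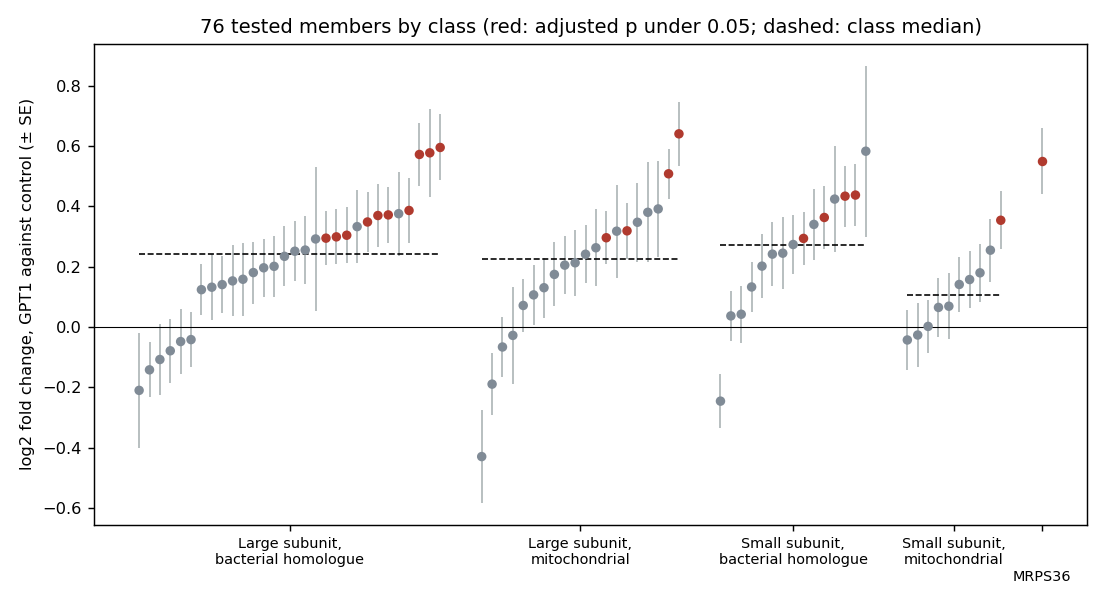
Log2 fold change (GPT1 against control, bars ± SE) of the 76 tested members in 4 classes and MRPS36, ordered by value within each class. Red points passed an adjusted p of 0.05 in edgeR, dashed lines are the class medians of 0.24, 0.23, 0.27 and 0.10, and no point below 0 is red.

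In the small subunit MRPS16 and MRPS15 changed most among the called members. MRPS16 (ENSG00000182180, chr10:73248843-73252693), a homologue of a bacterial protein needed for small subunit assembly, had 169.8, 181 and 145 CPM in the control and 236, 202 and 232 CPM in the GPT1 libraries. Its groups did not overlap (0.43 ± 0.10 (SE), edgeR adjusted p = 0.0139). MRPS15 (ENSG00000116898, chr1:36455718-36464437), which binds the small subunit's ribosomal RNA, had 47.3, 53.3 and 41.9 CPM in the control and 64.8, 64.1 and 64.2 CPM in the GPT1 libraries (0.44 ± 0.10 (SE), edgeR adjusted p = 0.0149). Both calls were lost without GPT1 replicate 1 or GPT1 replicate 3 (values of up to 0.0676 and 0.0654).

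MRPS23 was the one member called among the 10 small subunit proteins listed as mitochondrial. It had 59.7, 67.4 and 56.4 CPM in the control and 82.4, 75.0 and 77.1 CPM in the GPT1 libraries. MRPS23 rose by 0.35 ± 0.10 (SE) on the log2 scale (edgeR adjusted p = 0.0238). MRPS12, a protein of the decoding centre, rose by 0.36 ± 0.10 (SE) (edgeR adjusted p = 0.0291), and MRPS7, a protein of the head, by 0.29 ± 0.09 (SE) (edgeR adjusted p = 0.0325). Each of these 3 calls ended if GPT1 replicate 1, GPT1 replicate 3 or control replicate 1 was absent (edgeR adjusted p up to 0.102, 0.114 and 0.135).

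Human cells have 3 homologues of the bacterial protein S18, and none of them passed in edgeR. MRPS18C, in the small subunit, had 28.3, 36.6 and 29.2 CPM in the control and 40.9, 38.8 and 39.5 CPM in the GPT1 libraries. All GPT1 libraries were higher, and the test was missed narrowly (0.34 ± 0.12 (SE), edgeR adjusted p = 0.0554), while DESeq2 and limma voom called MRPS18C higher (adjusted p = 0.0359 and 0.0472). MRPS18B, also of the small subunit, had 122, 131 and 109 CPM in the control and 143, 123 and 137 CPM in the GPT1 libraries (0.16 ± 0.10 (SE), edgeR adjusted p = 0.240). MRPS18A sits in the large subunit in spite of its name, and it had 53.1, 60.3 and 47.5 CPM in the control and 64.2, 57.3 and 60.2 CPM in the GPT1 libraries (0.17 ± 0.11 (SE), edgeR adjusted p = 0.243). The groups of MRPS18B and MRPS18A overlapped. MRPS18C shares 40.2% of its exon bases with ABRAXAS1 on the opposite strand, which had 10.3 CPM in the control and 6.62 CPM in the GPT1 libraries.

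MRPS36 (ENSG00000134056, chr5:69217760-69230129) carries a ribosomal name but is now known as a subunit of the 2-oxoglutarate dehydrogenase complex, the citric acid cycle enzyme that uses 2-oxoglutarate (alpha-ketoglutarate). Its values were 12.3, 12.4 and 12.4 CPM in the control and 18.4, 17.8 and 18.2 CPM in the GPT1 libraries. Within each group they were nearly equal, and the groups were far apart for their spread (0.55 ± 0.11 (SE), or 1.46-fold, edgeR adjusted p = 0.00739). The change was 0.69 after the correction for transcript length and GC content described below (edgeR adjusted p = 0.00125), the highest corrected value of any tested member.

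2 members came nearest to a call in the other direction, and they are named here after their values were seen. MRPS9, a head protein of the small subunit, had 60.0, 66.9 and 65.9 CPM in the control and 53.9, 53.2 and 55.4 CPM in the GPT1 libraries. All GPT1 libraries were below all control libraries, and the test was not passed (-0.25 ± 0.09 (SE), edgeR adjusted p = 0.0620). MRPL50 had 20.2, 25.1 and 30.6 CPM in the control and 17.4, 20.7 and 18.2 CPM in the GPT1 libraries, a spread led by control replicate 3, and its groups overlapped (-0.43 ± 0.15 (SE), edgeR adjusted p = 0.0606; 0.0363 without control replicate 1). DESeq2 called MRPL50 lower, and after the length and GC correction its change was -0.14 (edgeR adjusted p = 0.232).

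The libraries of a group differed among themselves in their member levels. Summed over the 78 members, the control libraries held 5482, 6052 and 5173 CPM and the GPT1 libraries 6665, 6068 and 6418 CPM. The means were 5569 ± 445 and 6384 ± 300.1 (SD, n = 3 each), a ratio of 1.15, and control replicate 2 lay close under GPT1 replicate 2. Members took 0.526% to 0.598% of the counts in the control and 0.609% to 0.657% in the GPT1 libraries. GPT1 replicate 2 was the lowest GPT1 library in 20 of the 20 called members, and control replicate 2 was the highest control library in 17. Over the 76 tested members these counts were 50 and 51, and they were not made over all tested genes.

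**Figure D4:**
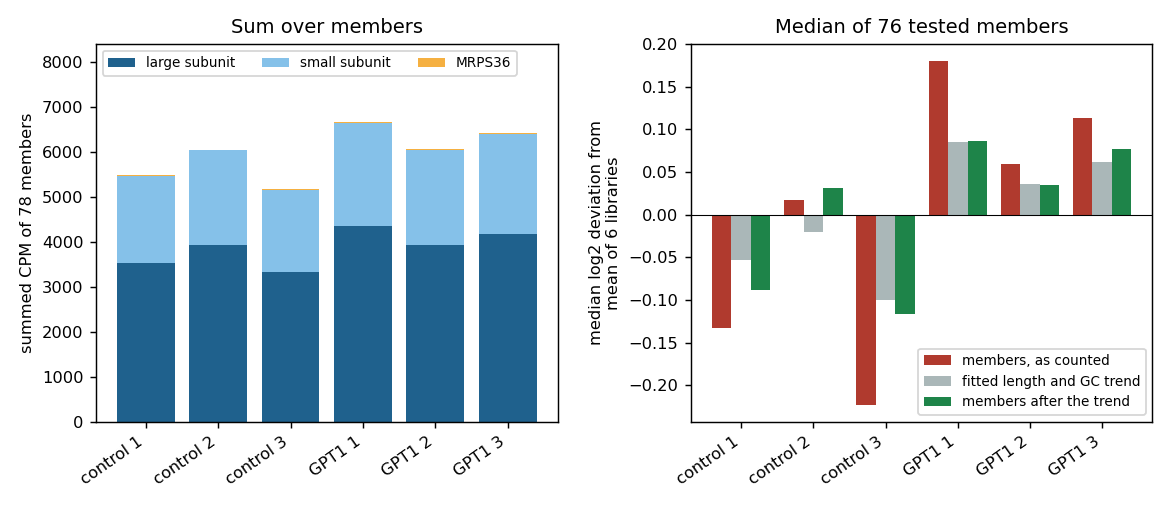
Left, summed CPM of the 78 members in each library, stacked by subunit, with control libraries between 5173 and 6052 and GPT1 libraries between 6068 and 6665. Right, median log2 deviation of the 76 tested members from the mean of all 6 libraries, as counted (red), as fitted from transcript length and GC content over all genes (grey) and after that fit (green).

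Length and GC content of the transcripts moved with the comparison. Across 17436 tested genes the log2 fold change had a Spearman correlation of -0.33 with transcript length and 0.31 with GC content, and across the 76 members of -0.23 and 0.15. These are correlations across genes, which are not independent replicates and share the same 6 libraries. Members have short transcripts, with a median of 1732.5 bases against 3204.5 for all tested genes. A smooth function of length and GC content, fitted to each library over all genes, put the median member at -0.05, -0.02 and -0.10 in the control and at 0.08, 0.04 and 0.06 in the GPT1 libraries. The medians as counted were -0.13, 0.02 and -0.22, and 0.18, 0.06 and 0.11.

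With that function as an offset the median log2 fold change of the members was 0.11, against 0.24 as counted. 25 members were then called higher in edgeR (15.8% of all tested genes were) and 4 lower (18.6% of all tested genes were). 14 members were called higher in both fits: MRPL51, MRPL52, MRPL33, MRPL27, MRPS36, MRPS16, MRPS15, MRPL15, MRPL12, MRPS23, MRPL11, MRPL22, MRPL44 and MRPL45. MRPL14, MRPL18, MRPL20, MRPL9, MRPS12 and MRPS7 were called only as counted. These 6 had a median transcript length of 1258 bases and 53.8% GC.

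11 members were called higher only with the correction: MRPL13, MRPL21, MRPL32, MRPL35, MRPL42, MRPL46, MRPS6, MRPS14, MRPS18C, MRPS30 and MRPS33. They had a median length of 3727 bases and 39.9% GC. MRPL42 turned from -0.19 as counted to 0.27 (edgeR adjusted p = 0.0135). The 4 members called lower with the correction were MRPS9 (-0.37), MRPL24 (-0.29), MRPS34 (-0.23) and MRPL17 (-0.21), with edgeR adjusted p values of 0.000926, 0.00122, 0.00775 and 0.0429. In all, the sign changed in 12 members. For the members of lowest adjusted p as counted, the corrected values were 0.31 for MRPL51, 0.56 for MRPL52, 0.43 for MRPL33 and 0.56 for MRPL27, all past the threshold.

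**Figure D5:**
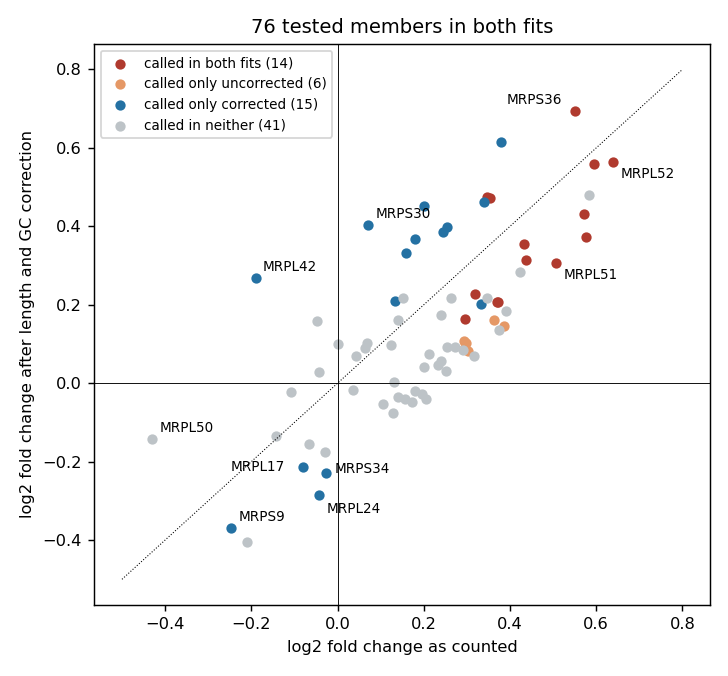
Log2 fold change of the 76 tested members as counted (horizontal) and after the correction for transcript length and GC content (vertical), with the dotted line at equal values. 14 members were called in both fits, 6 only as counted, 15 only after correction (11 higher and 4 lower) and 41 in neither.

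5 proteins of the same ribosome carry other symbols, and 1 of them rose (20%, against 10.5% of all tested genes). CHCHD1, a small subunit protein, had 24.4, 27.3 and 23.5 CPM in the control and 41.1, 36.7 and 42.2 CPM in the GPT1 libraries (0.67 ± 0.11 (SE), edgeR adjusted p = 0.00281). AURKAIP1, also of the small subunit, had 110.0, 127 and 96.2 CPM in the control and 157, 125 and 139 CPM in the GPT1 libraries. It missed the threshold (0.34 ± 0.12 (SE), edgeR adjusted p = 0.0565). It passed without control replicate 2 (edgeR adjusted p = 0.0188) and without GPT1 replicate 2 (0.0273). In each of the other leave-outs 1 of the 5 proteins was called. After the length and GC correction AURKAIP1 stood at 0.13 and was not called (edgeR adjusted p = 0.0755). GADD45GIP1, of the large subunit, stood at 0.30 ± 0.18 (SE). DAP3, a GTP-binding small subunit protein, and PTCD3, which sits near the mRNA entry, had -0.07 ± 0.08 (SE) and -0.25 ± 0.11 (SE), and neither passed. After the length and GC correction DAP3 was called lower (-0.17, edgeR adjusted p = 0.0179).

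Of 26 factors that assemble the mitochondrial ribosome or modify its RNA 7 rose (26.9%, against 10.5% of all tested genes) and 0 fell (14.6%), with a median of 0.18. DDX28, a helicase for large subunit assembly, had 29.1, 35.5 and 29.2 CPM in the control and 47.0, 43.0 and 49.5 CPM in the GPT1 libraries (0.57 ± 0.11 (SE), edgeR adjusted p = 0.00737). ERAL1, a GTPase that binds the small subunit's ribosomal RNA, had 0.41 ± 0.09 (SE) (edgeR adjusted p = 0.0123). MRM3, which methylates the large ribosomal RNA, and TRMT2B, another RNA methyltransferase, had 0.43 ± 0.10 (SE) and 0.49 ± 0.11 (SE) (edgeR adjusted p = 0.0138 and 0.0139). RCC1L, MTG1 and RPUSD4 were the others. Without GPT1 replicate 1 the count of assembly factors called was 2, and without GPT1 replicate 3 it was 1 (DDX28). With the length and GC correction 12 were called higher and 3 lower, where 15.8% and 18.6% of all tested genes were.

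Factors that work with the finished ribosome gave 1 call. Of 15 translation factors and mRNA-binding proteins 1 rose (6.67%, against 10.5% of all tested genes) and 0 fell (14.6%), with a median of -0.03. That gene was SLIRP, a partner of LRPPRC in keeping mitochondrial mRNAs stable, with 29.6, 36.9 and 29.4 CPM in the control and 50.7, 43.8 and 49.4 CPM in the GPT1 libraries (0.58 ± 0.12 (SE), edgeR adjusted p = 0.00787). OXA1L, the insertase at the tunnel exit, had 0.16 ± 0.07 (SE), MTIF2, the initiation factor, -0.31 ± 0.15 (SE), and TACO1 0.23 ± 0.12 (SE), and none of these 3 passed.

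The same comparison in related gene groups is given for scale, with no test of the differences. Of 82 tested cytosolic ribosomal protein genes 25 rose (30.5%, against 10.5% of all tested genes) and 0 fell (14.6%), with a median of 0.18. Of 75 tested nuclear genes for respiratory chain and ATP synthase subunits 40 rose (53.3%) and 0 fell, with a median of 0.30. Without GPT1 replicate 1, or without GPT1 replicate 3, these counts were 13 and 20, where 3.58% and 3.39% of all tested genes were called higher. The respiratory count was 25 without control replicate 1 (5.48% of all tested genes). After the length and GC correction 29 cytosolic ribosomal genes were called higher and 8 lower (median 0.10). With it 43 respiratory genes were called higher and 0 lower (median 0.23), where 15.8% and 18.6% of all tested genes were. For the 13 mRNAs of the mitochondrial genome, which the mitochondrial ribosome translates, 0 passed in edgeR, with 1 at an unadjusted p under 0.05 (MT-ND3, 0.37 ± 0.13 (SE)), and the median was -0.26. After the correction 4 of them (MT-CO1, MT-CO3, MT-ND4 and MT-ND4L) were called lower in edgeR, and the median was -0.39. Their summed level was 17480, 25153 and 23311 CPM in the control and 17869, 22994 and 10912 CPM in the GPT1 libraries, with overlapping groups. The mitochondrial ribosomal RNAs cannot be followed here: MT-RNR1 had at most 0.258 CPM and MT-RNR2 at most 1.67 CPM in any library.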

How the data were processed

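The authors deposited 1 table of raw read counts per gene, whole numbers, with 1 column per sample. Per the labels' protocols, total RNA was extracted with Trizol and mRNA libraries followed Illumina protocols. Per the submitters' processing notes, the aligner was HISAT2 2.0 and the genome GRCh38. The counter, the annotation and the strandedness were not given in the sources used here. Reads shared by overlapping genes or near-identical copies therefore cannot be assigned with certainty.

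Symbols, coordinates and exons came from GENCODE 29 (2268 of 60664 identifiers were not in it). Tests ran in edgeR 4.0.16 (R 4.3.3). Low counts were removed with filterByExpr, libraries were scaled with TMM, and all 6 libraries were fitted without covariates by the quasi-likelihood test (two-sided, Benjamini-Hochberg over 17638 genes, threshold 0.05). The standard error is the log2 fold change divided by the square root of F. RPKM divides CPM by the kilobases of the longest transcript. The length and GC correction fitted a smooth function per library (mgcv 1.9.3) and used it as an offset, and 98.9% of tested genes had both values. The tests were checked on simulated data. Alternatives were other scalings and filters, DESeq2 1.42.0, limma voom (3.58.1), glmTreat, a stricter threshold of 0.01, a block for the replicate number, and each library left out.

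The members' rule uses symbols only, but the members and gene lists were chosen with earlier results of these data known. Values in every library were to be given for the 10 members per direction with the largest called change, the 5 with the highest RPKM, the S18 homologues, MRPS36, the member of each group with the lowest adjusted p, and up to 4 genes of each other list. Limits on levels given for counts of 0 cover counting error only.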

Additional observations from a re-analysis of the deposited data

How the results depend on the processing

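20 members were called higher as reported. This count was 5 with a test against a 1.2-fold change (glmTreat), 5 at an adjusted p of 0.01 and 13 with a replicate block. Of all tested genes 2.99%, 2.78% and 8.03% were called higher in these settings, against 10.5% as reported. When single libraries were left out the count ran from 5 to 32, where 3.39% to 10.9% of all tested genes were called higher. 5 of the 20 called members were called in all 6 leave-outs, and 62 members had a positive log2 fold change in all 6. The count of such positive changes was not made over all tested genes. 0 members were called lower as reported, against 1 with total counts, 1 with all genes that had a count, 1 with DESeq2, 4 with the length and GC offset, 3 with that offset and the replicate block, and 0 to 1 in the leave-outs. The median log2 fold change of the members was 0.11 with the offset and 0.12 with the offset and the block, and MRPL42 turned to 0.27 in both. For the 5 ribosomal proteins with other symbols, 1 was called as reported, 2 with DESeq2 size factors, 2 with upper quartile factors, 3 with all genes that had a count, 2 with DESeq2, 2 with the offset (1 higher and 1 lower) and 1 to 3 in the leave-outs. For assembly factors the count called in either direction, 7 as reported and all higher, was 1 with glmTreat, 1 at an adjusted p of 0.01, 15 with the offset (12 higher and 3 lower), 11 with the offset and the block (10 higher and 1 lower), and 1 to 8 in the leave-outs. Of all tested genes 15.8% were called higher and 18.6% lower with the offset, and 12.8% higher with the offset and the block. For translation factors the count of 1 was 2 with all genes that had a count and 1 to 2 in the leave-outs. The cause of these shifts was not tested, other than that leave-outs have fewer samples and a stricter threshold calls fewer genes. The same-numbered control and GPT1 libraries had correlations of their deviations from group means of 0.141, -0.282 and -0.0838. Only control replicate 1 correlated best with the library of its own number. The highest correlation, 0.387, was between control replicate 3 and GPT1 replicate 2. With 3 libraries per group, whose deviations sum to 0, these values cannot tell whether same-numbered libraries were prepared together. Counting error limits the members with the lowest counts, MRPS24, MRPL53 and MRPS28.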
